A study of Mus musculus with 11 samples.

Results

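Interferon-gamma signalling was followed through 9 genes: the receptor chains Ifngr1 and Ifngr2, the kinases Jak1 and Jak2, the transcription factors Irf1 and Irf8, the feedback inhibitor Socs1, and the checkpoint genes Ido1 and Cd274. They were chosen by gene symbol, as a list of the pathway's main steps, and all 9 were present among the 31168 named rows. These genes and the lists used below were chosen with earlier results of these data known. Shares set beside those of all genes are therefore descriptions. All 9 also passed the filter on low counts, which kept 15911 genes.

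The libraries came from whole tissue of the last 2 cm of the ileum of mice treated with dextran sodium sulfate, a polysaccharide that injures the gut lining. The 6 WT mice (replicates 2, 4, 7, 8, 9 and 12) were H2-Ab1 fl/fl and Villin:Cre-, and the 5 dIEC mice (replicates 1, 3, 5, 6 and 11) were H2-Ab1 fl/fl and Villin:Cre+. Each mouse gave 1 library. Both groups thus carried the floxed class II gene and received the same agent, and the design holds no untreated mouse. The villin promoter drives Cre in intestinal epithelial cells, so the other cells of the tissue are not targeted. The sources used here do not give strain, age, sex, or the dose and days of treatment. The comparison sets the pathway's RNA in Cre-positive mice beside that in their Cre-negative controls.

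Interferon-gamma is made mainly by T cells, natural killer cells and innate lymphoid cells. It binds IFNGR1, which carries JAK1, and recruits IFNGR2, which carries JAK2. The signal of the kinases is carried to gamma-activated sites (GAS) in DNA and switches on Irf1 among other genes, and IRF proteins then act on a second class of target sites. SOCS1 is induced by the same signal and shuts off the kinases. In the gut the cytokine raises class II molecules on epithelial cells, the tryptophan-degrading enzyme IDO1, and PD-L1, the product of Cd274, which restrains T cells.

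The RefSeq promoter table (GRCm38.p6), which gives 250 bases before and 50 after each start site, held 8 of the 9 genes in 10 windows, and Ido1 has no entry. Each window was searched for a GAS-type pattern, TTCNNNGAA, which reads the same on both strands, and for an IRF-type pattern, GAAANNGAAA, on either strand. Windows of 3 genes had a match, and these are shown because they hold the pathway's own kinds of target sequence. Capitals mark the matches. An Irf1 window (chr11:53769764-53770063, plus strand) has 1 GAS-type match that begins 90 bases before the start site. An Irf8 window (chr8:120736108-120736407, plus strand) has 2, beginning 171 and 153 bases before it. The other Irf1 window (chr11:53770223-53770522) and the other Irf8 window (chr8:120738389-120738688) hold no match of either kind and are not shown. The Socs1 window (chr16:10785487-10785786, minus strand) has 2 IRF-type matches, beginning 83 and 77 bases before the start site and overlapping each other, so they appear as 1 run of capitals.
Irf1: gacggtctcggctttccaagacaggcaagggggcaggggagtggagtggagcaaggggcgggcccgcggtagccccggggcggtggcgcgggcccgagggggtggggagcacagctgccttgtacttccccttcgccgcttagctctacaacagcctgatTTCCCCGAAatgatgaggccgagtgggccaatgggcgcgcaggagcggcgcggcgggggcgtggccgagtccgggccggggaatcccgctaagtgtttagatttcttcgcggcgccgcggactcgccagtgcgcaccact
Irf8: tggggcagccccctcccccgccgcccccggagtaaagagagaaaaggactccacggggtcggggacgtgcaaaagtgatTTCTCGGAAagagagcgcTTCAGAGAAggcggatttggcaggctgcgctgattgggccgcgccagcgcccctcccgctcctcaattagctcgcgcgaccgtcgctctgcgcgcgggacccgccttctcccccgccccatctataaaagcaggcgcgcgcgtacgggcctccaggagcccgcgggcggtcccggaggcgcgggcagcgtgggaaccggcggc
Socs1: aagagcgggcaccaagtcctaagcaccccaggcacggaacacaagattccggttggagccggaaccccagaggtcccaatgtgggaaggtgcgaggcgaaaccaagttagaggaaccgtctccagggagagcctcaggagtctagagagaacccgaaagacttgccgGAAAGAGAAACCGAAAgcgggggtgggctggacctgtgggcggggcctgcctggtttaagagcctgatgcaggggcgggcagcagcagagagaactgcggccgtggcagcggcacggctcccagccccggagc
Of 32851 promoters of this length in the table, 8.30% hold the GAS-type pattern and 3.44% the IRF-type pattern. A match in these letters is a description of the window and does not show binding.

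Total counts were 6603965 to 9681698 per library, of which ribosomal RNA rows and Gm42418, a locus that overlaps a ribosomal RNA copy, held 37.0 to 57.0%. Protein-coding genes other than Lars2, whose locus is known to collect ribosomal reads, kept 1510296 to 3215574, and this limits the precision of the scarce members. Levels are given as CPM, counts per 1000000 counts of a library after scaling with TMM factors. H2-Ab1, the targeted gene, had 47.2 to 111 CPM in WT and 39.0, 23.0, 17.4, 33.1 and 16.8 CPM in dIEC replicates 1, 3, 5, 6 and 11, with no overlap between the groups. Fabp6 and Slc10a2, the bile acid genes that define ileal enterocytes, had at least 79.6 and 49.3 CPM in every library. WT replicate 8 stood apart from the other WT libraries in the summed level of 10 enterocyte markers, at 6731 CPM against 1823 to 3403 CPM. Nothing in the labels gives cage, litter or batch, so each p-value below weighs a difference only against the spread among these mice.

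All 9 genes had higher fitted levels in dIEC than in WT, against 48.8% of all genes tested. Because the 9 were chosen with earlier results of these data known, such shares only describe them. The median log2 fold change of the 9, dIEC against WT, was 0.26, and that of all genes was -0.0073. None passed the threshold of 0.05 in edgeR's quasi-likelihood test after Benjamini-Hochberg adjustment over all genes (0 of 9, against 0.00628% of all genes), and DESeq2 also called 0 of 9, against 0.0691%. At an unadjusted edgeR p under 0.05 there were 4, Irf8, Socs1, Ido1 and Cd274, all higher in dIEC, against 4.86% of all genes. The receptor, kinase and Irf1 genes thus had log2 fold changes of 0.12 to 0.26, while Irf8, Cd274, Ido1 and Socs1 had 0.50 to 1.41. The targeted gene H2-Ab1 did not pass in edgeR either (log2 fold change -1.68 ± 0.28 SE, edgeR adjusted p = 0.363). DESeq2 called it (adjusted p = 4.17e-05). The edgeR count of 0 of 9 therefore does not show that the members did not differ.

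**Figure D1:**
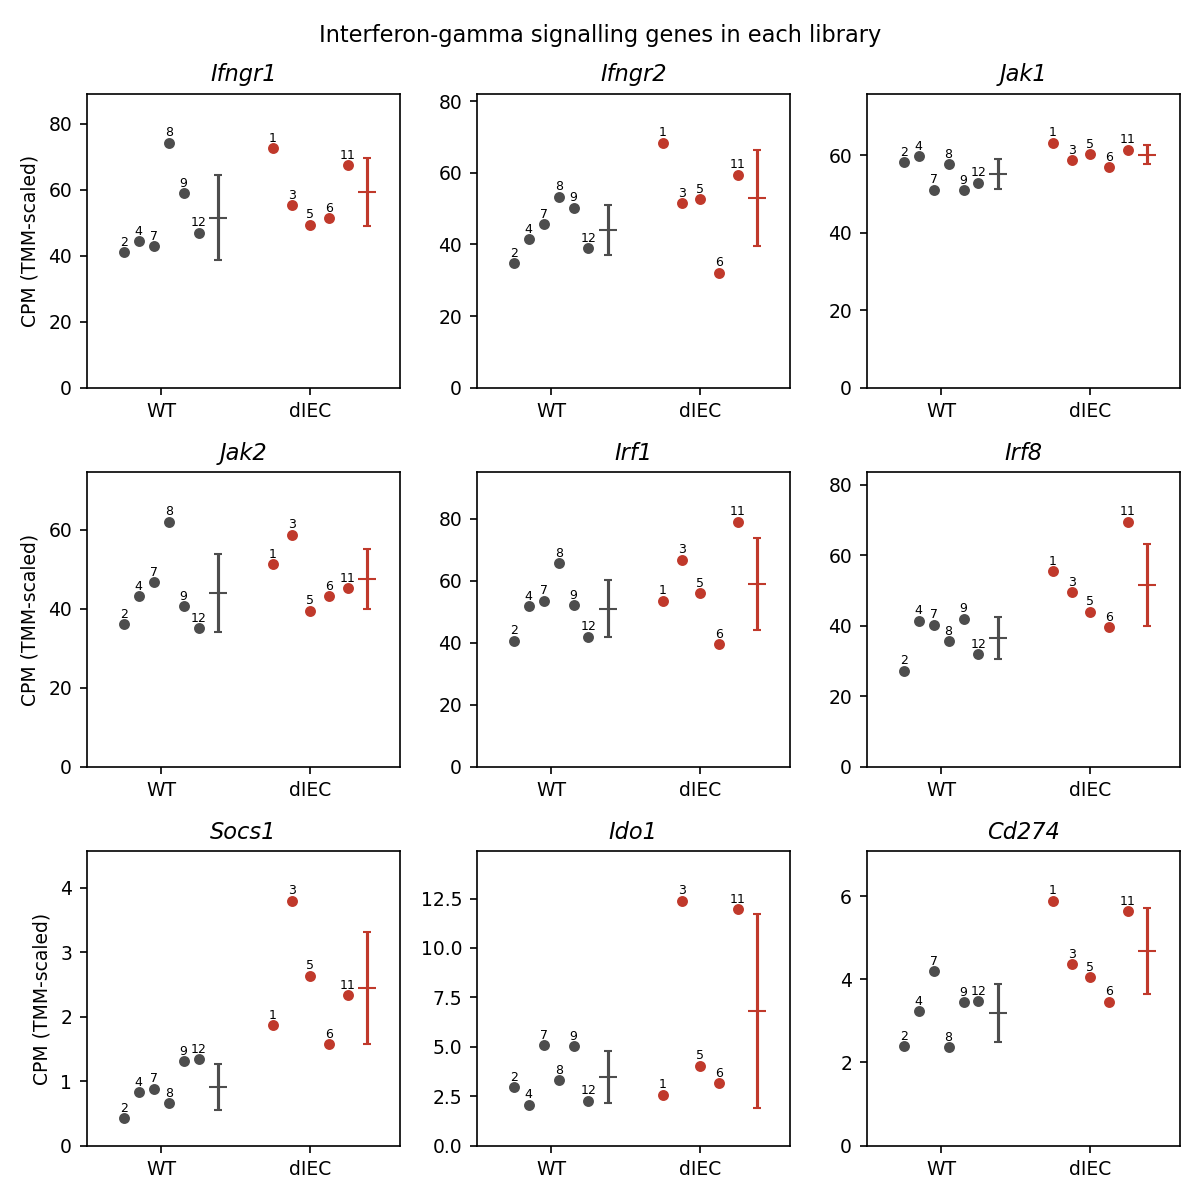
Level of each of the 9 genes in every library, in CPM on a linear axis from 0, with replicate numbers beside the points and the mean with its SD at the right of each group (n = 6 WT and 5 dIEC). Socs1 is the 1 gene whose groups do not overlap, and Ido1 is high in dIEC replicates 3 and 11 alone.

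The receptor chains were expressed at similar levels in both groups. Ifngr1, the ligand-binding chain (chromosome 10, 19591949 to 19610229, plus strand), had a lowest, median and highest level of 41.2, 45.8 and 74.4 CPM in WT, and 72.7, 55.3, 49.4, 51.3 and 67.5 CPM in dIEC replicates 1, 3, 5, 6 and 11. WT replicate 8 was the highest of all 11 libraries, and all 5 dIEC libraries lay inside the WT range. The log2 fold change of Ifngr1 was 0.20 ± 0.16 (SE; 95% interval -0.14 to 0.55, edgeR adjusted p = 0.636). Ifngr2, the chain that brings JAK2 into the complex (chromosome 16, 91547072 to 91565623, plus strand), had 34.9, 43.5 and 53.4 CPM as its lowest, median and highest WT level. In dIEC it had 68.4, 51.5, 52.7, 32.1 and 59.5 CPM in the same order of replicates. Replicates 1 and 11 lay above every WT library and replicate 6 below every WT library. The log2 fold change of Ifngr2 was 0.26 ± 0.17 (95% interval -0.09 to 0.62, edgeR adjusted p = 0.558).

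The kinases differed little between the groups, and Jak1 varied less than Jak2. Jak1, bound to IFNGR1 and also used by type I and III interferon and many interleukin receptors (chromosome 4, 101152367 to 101265282, minus strand), had 50.9, 55.3 and 59.7 CPM as its lowest, median and highest WT level and 63.3, 58.7, 60.2, 56.8 and 61.4 CPM in the 5 dIEC libraries. Although 3 dIEC libraries lay above all WT libraries, the whole range over 11 libraries was 50.9 to 63.3 CPM. Its log2 fold change was 0.13 ± 0.08 (95% interval -0.05 to 0.31, edgeR adjusted p = 0.577). Jak2, bound to IFNGR2 (chromosome 19, 29251828 to 29313080, plus strand), had 35.2, 41.9 and 62.1 CPM in WT and 51.3, 58.8, 39.5, 43.2 and 45.2 CPM in dIEC. As for Ifngr1, the highest library was WT replicate 8, the one with the high enterocyte sum. The log2 fold change of Jak2 was 0.12 ± 0.15 (95% interval -0.20 to 0.43, edgeR adjusted p = 0.788). Scaling by library size alone moved the all-gene median to -0.22. Under it Jak1 and Jak2 had log2 fold changes of -0.091 and -0.066, below 0 and above that median.

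Irf1, a transcription factor induced early in the response, was abundant in both groups. The gene (chromosome 11, 53770014 to 53778374, plus strand) had a lowest, median and highest level of 40.7, 52.0 and 65.8 CPM in WT and 53.6, 66.8, 56.1, 39.5 and 79.1 CPM in dIEC replicates 1, 3, 5, 6 and 11. The top and the bottom library were both dIEC, replicates 11 and 6. Its log2 fold change was 0.21 ± 0.16 (95% interval -0.14 to 0.56, edgeR adjusted p = 0.627). The difference in Irf1 thus lay within the spread of the libraries. A link between the promoter matches shown above and the levels of Irf1, Irf8 or Socs1 was not tested.

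Irf8 lay higher in dIEC. This factor of dendritic cells, macrophages and B cells, itself induced by interferon-gamma in macrophages (chromosome 8, 120736358 to 120756694, plus strand), had 27.2, 37.9 and 42.0 CPM as its lowest, median and highest WT level. In dIEC it had 55.4, 49.5, 44.0, 39.5 and 69.5 CPM. Replicate 6 alone fell inside the WT range, and the other 4 libraries were above it. The log2 fold change was 0.50 ± 0.15 (95% interval 0.18 to 0.82), with an unadjusted p = 0.00456 and an edgeR adjusted p = 0.427 (DESeq2 adjusted p = 0.278).

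Markers of the cells known for Irf8 were measured beside it. The summed level of 9 macrophage markers was 48.6 to 146 CPM in WT and 77.9 to 140 CPM in dIEC, and 2 of the 9 had log2 fold changes above 0. Of 10 dendritic cell markers 6 were tested and 3 lay above 0, with sums of 54.2 to 89.7 CPM in WT and 60.9 to 71.9 CPM in dIEC. The 9 B cell markers were close to the detection limit, with 7 under 1 CPM on average and 0 tested, and their sums were 4.68 to 6.78 CPM in WT and 2.79 to 6.90 CPM in dIEC. No marker of these lists was at 0 in all 11 libraries. The part of these cells in the level of Irf8 was not tested. In whole tissue, fewer or more cells of a type and less or more RNA per cell cannot be told apart.

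Socs1 was the gene with the largest fold change of the 9 and also the scarcest. SOCS1 binds JAK1, JAK2 and the receptor and ends signalling (chromosome 16, 10782240 to 10785536, minus strand). Its counts were 3, 8, 8, 5, 14 and 10 in WT replicates 2, 4, 7, 8, 9 and 12, and 13, 34, 13, 10 and 17 in dIEC replicates 1, 3, 5, 6 and 11. As CPM these were 0.423, 0.858 and 1.34 for the lowest, median and highest WT library, and 1.87, 3.80, 2.63, 1.57 and 2.34 in dIEC. Every dIEC library lay above every WT library, which held for 0.233% of all genes tested.

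Socs1 averaged 0.907 ± 0.360 CPM over the 6 WT libraries and 2.44 ± 0.862 CPM over the 5 dIEC libraries (means ± SD), a ratio of 2.69. Its log2 fold change was 1.41 ± 0.31 (SE; 95% interval 0.76 to 2.06). It ranked 9 among all genes by p (unadjusted p = 0.000357), but its edgeR adjusted p was 0.427 and its DESeq2 adjusted p 0.0713. Without WT replicate 8 it passed, at a log2 fold change of 1.34 ± 0.32 and an edgeR adjusted p = 0.0457; 2.02% of all genes passed in that fit, and no other member did. The totals behind these values are 48 counts over the WT group and 87 over the dIEC group.

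The checkpoint genes differed in which libraries were high. Ido1 encodes indoleamine 2,3-dioxygenase, the first enzyme from tryptophan to kynurenine (chromosome 8, 24584136 to 24597009, minus strand). It had 2.08, 3.13 and 5.08 CPM as its lowest, median and highest WT level, and 2.59, 12.4, 4.05, 3.15 and 11.9 CPM in dIEC replicates 1, 3, 5, 6 and 11. Replicates 3 and 11 stood above every WT library, while the other 3 dIEC libraries were within the WT range. The log2 fold change of Ido1 was 1.002 ± 0.43 (95% interval 0.07 to 1.93; unadjusted p = 0.0370, edgeR adjusted p = 0.444). Leaving out dIEC replicate 3 lowered it to 0.66, and leaving out replicate 11 instead gave 0.72.

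Cd274 lies on chromosome 19 (29367455 to 29388095, plus strand), 54375 bases beyond the end of Jak2 on the same strand. It had 2.38, 3.34 and 4.19 CPM as its lowest, median and highest WT level and 5.89, 4.36, 4.05, 3.46 and 5.63 CPM in dIEC. Of the 5 dIEC libraries, replicates 1, 3 and 11 were above every WT library. The other 2 lay within the WT range and above its median. The log2 fold change was 0.55 ± 0.20 (95% interval 0.13 to 0.97; unadjusted p = 0.0143, edgeR adjusted p = 0.427). Dendritic and macrophage markers, given above, overlapped between the groups here too. Enterocytes can express Cd274 and Ido1. Of the tested enterocyte markers, 9 of 9 had fold changes above 0 (median log2 0.58), against 48.8% of all genes. Among them 1 had an unadjusted edgeR p under 0.05, against 4.86% of all genes higher in dIEC, and 0 passed the adjusted threshold. Their sums were 2560 to 5690 CPM in dIEC. In WT they were 1823 to 3403 CPM, apart from replicate 8 at 6731 CPM. Within dIEC, enterocyte sum and Cd274 gave the same order, replicates 1, 11, 3, 5 and 6 from high to low. Ido1 did not follow it, and replicate 1 had the lowest Ido1 of the dIEC libraries, 2.59 CPM. Within WT, replicate 8 had the highest enterocyte sum and the lowest Cd274. The 7 fibroblast markers had fold changes below 0 (median log2 -1.01). Among these, 6 had an unadjusted edgeR p under 0.05, against 922 of all 15911 genes in the lower direction, and 0 passed the adjusted threshold. The part of either cell type in these levels was not tested.

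**Figure D2:**
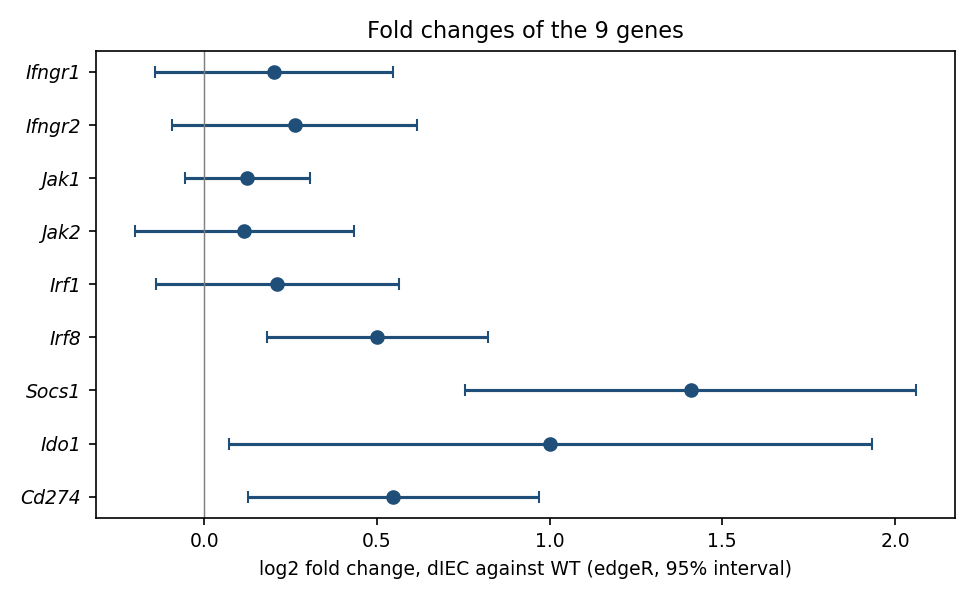
Log2 fold change of each gene, dIEC against WT, from edgeR (points) with its 95% interval (bars). The intervals of both receptor chains, both kinases and Irf1 include 0, and those of Irf8, Socs1, Ido1 and Cd274 do not, before any adjustment for the 15911 genes tested.

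Levels of the 9 genes were compared with each other as CPM per kilobase of annotated exon, over all 11 libraries. The length joins the exons of all annotated transcripts of a gene, whichever are made here, so the order holds for that length only. Ifngr1 led with 19.3 ± 4.18 (SD), followed by Irf1 with 13.7 ± 3.05, Ifngr2 with 12.8 ± 2.88, Jak2 with 9.07 ± 1.72, Jak1 with 7.94 ± 0.566 and Irf8 with 6.14 ± 1.65. Ido1 (2.73 ± 2.02), Cd274 (1.07 ± 0.313) and Socs1 (0.552 ± 0.345) came last. In this order Irf1 and Ifngr2 differed by a log2 ratio of 0.11 ± 0.21 and Jak2 and Jak1 by 0.17 ± 0.25, both smaller than their SD over the libraries. The other neighbours differed by more than their SD, and Ifngr1 was above Irf1 in 11 of 11 libraries. The feedback gene Socs1 was thus the scarcest of the 9 on this scale.

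A ratio of 2 members within a library is free of the library's scaling. In all, 6 ratios were compared by two-sided exact permutation of the group labels, with Benjamini-Hochberg adjustment over the 6. The smallest p that 462 arrangements allow is 0.00433. The ratio of Socs1 to Irf1, inhibitor to activator, averaged 0.0183 ± 0.00859 in the WT libraries and 0.0416 ± 0.0107 in the dIEC libraries (means ± SD). The test gave an exact permutation p = 0.00866 and an adjusted p = 0.0519. Its dIEC values were 0.0349, 0.0569, 0.0469, 0.0398 and 0.0295 in replicates 1, 3, 5, 6 and 11, and its highest WT value was 0.0318. Replicate 11, with the most Irf1 of all libraries, was the 1 dIEC library inside the WT range. With single libraries left out, the adjusted p was 0.0476 without WT replicate 12, the top WT library, and 0.0571 to 0.114 without each of the other 10. Fewer arrangements remain in these fits. The exact permutation p without WT replicate 12, 0.00794, and that without dIEC replicate 11, 0.00952, were the smallest those fits allow. Without a dIEC library the ratio could therefore pass only if another ratio had a small p too. Those values do not measure its stability.

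Irf8 to Irf1 was 0.721 ± 0.101 for WT against 0.887 ± 0.128 for dIEC (exact permutation p = 0.0519, adjusted p = 0.156), with 3 of 5 dIEC libraries above the highest WT library. Cd274 to Irf1 was 0.0641 ± 0.0165 and 0.0812 ± 0.0180 (exact permutation p = 0.143, adjusted p = 0.286), and Ido1 to Irf1 was 0.0682 ± 0.0239 and 0.107 ± 0.0582 (exact permutation p = 0.203, adjusted p = 0.305). Within the receptor and the kinase pair the mean ratio was close in both groups. Ifngr1 to Ifngr2 was 1.16 ± 0.150 for WT against 1.16 ± 0.254 for dIEC (exact permutation p = 0.913, adjusted p = 0.987). Jak2 to Jak1 was 0.800 ± 0.171 against 0.793 ± 0.129 (exact permutation p = 0.987, adjusted p = 0.987). The sign of these last differences changed when single libraries were left out.

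**Figure D3:**
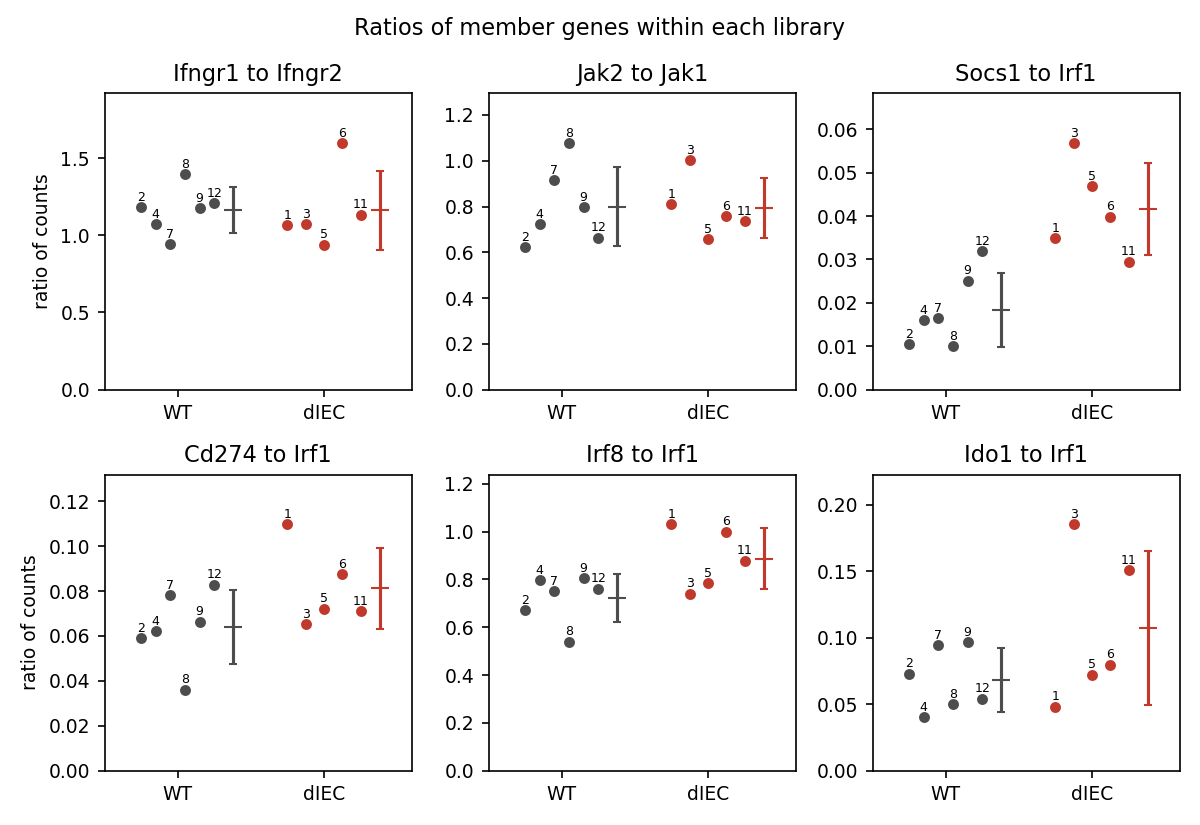
Ratio of the counts of member genes in each library, on linear axes from 0, with replicate numbers and the mean with its SD at the right of each group (n = 6 WT and 5 dIEC). Socs1 to Irf1 has 4 of 5 dIEC libraries above all WT libraries, while Ifngr1 to Ifngr2 and Jak2 to Jak1 overlap.

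The ligand itself was hardly read. Ifng had 3 counts in all 6 WT libraries together and 2 in the 5 dIEC libraries, and with Il12a, Il12b, Il12rb1, Il27, Stat4, Tbx21 and Eomes it was among 8 of 12 genes upstream of interferon-gamma that did not pass the filter. A difference in the ligand was therefore not detectable at this depth. The 4 that were tested lay above 0 on the log2 scale, at a median of 0.17, and 0 passed the adjusted threshold. Il18, a cytokine that promotes interferon-gamma release, had 2.24 ± 0.964 CPM in WT and 4.12 ± 2.98 in dIEC (log2 fold change 0.87 ± 0.41 SE, edgeR adjusted p = 0.471), and dIEC replicate 1 alone, at 9.35 CPM, lay above the WT range. The chains of its receptor, Il18r1 and Il18rap, averaged 3.59 and 1.80 CPM over the WT libraries, against 3.72 and 2.19 CPM over the dIEC libraries.

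Among the other 8 JAK and STAT genes 5 lay above 0, with a median of 0.092, and 0 passed. Stat3 had 62.7 ± 10.5 CPM in WT and 80.7 ± 8.95 in dIEC, while Stat6, of interleukin-4 signalling, had 45.7 and 44.6 CPM and Tyk2, the kinase of type I interferon receptors, 20.4 and 19.95 CPM.

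Of 9 other genes of interferon regulatory factors and their binding partners 7 lay above 0 (median 0.087, 0 past the threshold). Irf2, which competes with IRF1 for sites, averaged 29.3 CPM over the WT and 30.7 CPM over the dIEC libraries, and the corepressor gene Irf2bp2 60.1 and 54.7 CPM. The 7 tested chains of other class II cytokine receptors all lay above 0, with a median of 0.14, no unadjusted p under 0.05 (0 of 7) and 0 past the threshold. Il22ra1, the epithelial receptor of interleukin-22, had 24.8 and 29.9 CPM, Ifnar1 of the type I interferon receptor 22.6 and 23.6 CPM, and Il10rb, shared by interleukin-10, interleukin-22 and type III interferons, 11.02 and 13.8 CPM.

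The other brakes of the pathway did not lie to 1 side. Of 7 SOCS family genes besides Socs1, 3 were above 0 and 4 below, with a median of -0.040. Socs3, the inhibitor of STAT3 signalling, had 8.96 ± 3.98 CPM in WT and 28.3 ± 16.0 in dIEC (log2 fold change 1.64 ± 0.41 SE, edgeR adjusted p = 0.427, DESeq2 adjusted p = 0.0330). It was the 1 gene of the 7 that DESeq2 called, against 0.0691% of all genes. Its libraries were ordered unlike those of Socs1: 33.6, 23.7, 52.3, 22.8 and 9.21 CPM in dIEC replicates 1, 3, 5, 6 and 11, so that replicate 11 lay inside the WT range of 5.00 to 15.2 CPM. Socs4 had 27.9 and 30.5 CPM in WT and dIEC, and Socs2, a brake on growth hormone signalling, 21.5 and 20.5 CPM. Of 10 phosphatases and other inhibitors 6 lay above 0 (median 0.11, 0 past the threshold), with Ptpn11 at 43.2 and 40.4 CPM, Stub1 at 17.3 and 16.4 CPM and Pias1, a SUMO ligase, at 16.7 and 19.2 CPM.

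Among 24 tested genes of direct interferon-gamma targets 22 lay above 0, against 48.8% of all genes tested, with a median of 0.48. None passed the edgeR threshold (0 of 24, against 0.00628% of all genes). At an unadjusted edgeR p under 0.05, 14 were higher in dIEC, against 4.86% of all genes. This list too was chosen with earlier results known, so its shares are descriptions. DESeq2 called 1, Zbp1, against 0.0691% of all genes. Parp14, an ADP-ribosyltransferase, had 68.7 ± 11.1 CPM in WT and 92.6 ± 29.0 in dIEC, Lap3, an aminopeptidase that trims peptides, 51.0 ± 26.2 and 80.8 ± 24.4, and Wars, the tryptophanyl-tRNA synthetase, 28.8 ± 2.17 and 35.4 ± 5.85. By library, 20, 22, 15, 11 and 21 of the 24 targets exceeded their WT median in dIEC replicates 1, 3, 5, 6 and 11, against 5 to 19 in the WT libraries. Replicates 1, 3 and 11, the libraries with Cd274 above the WT range, also had the most targets above the WT median, and replicate 6, with the lowest Irf1, Irf8, Socs1 and Cd274 of the dIEC libraries, had the fewest.

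Around Ido1 the tryptophan genes were mixed. Of 8 tested genes 4 lay above 0 and 4 below (median 0.13, 0 past the threshold), and the downstream kynurenine genes Kmo, Kynu, Haao and Qprt were too scarce to test. Slc6a19, the enterocyte's neutral amino acid transporter, had 89.3 ± 82.9 CPM in WT and 134 ± 54.7 in dIEC, and Slc3a2, a chain of amino acid exchangers, 28.6 ± 7.84 and 36.1 ± 3.98. Around Cd274, 11 of 21 checkpoint genes were tested, 7 above 0 and 4 below, with a median of 0.17 and 0 past the threshold. PD-1 itself (Pdcd1) and the other PD-1 ligand gene, Pdcd1lg2, were among the 10 below the filter. Lgals9, galectin-9, had 66.5 ± 9.76 CPM in WT and 94.0 ± 24.8 in dIEC (log2 fold change 0.50 ± 0.16 SE, edgeR adjusted p = 0.427), Cd47, a signal against phagocytosis, 44.4 ± 6.01 and 58.0 ± 12.4, and Nectin2, a ligand of TIGIT, 31.8 ± 6.10 and 36.8 ± 7.20.

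**Figure D4:**
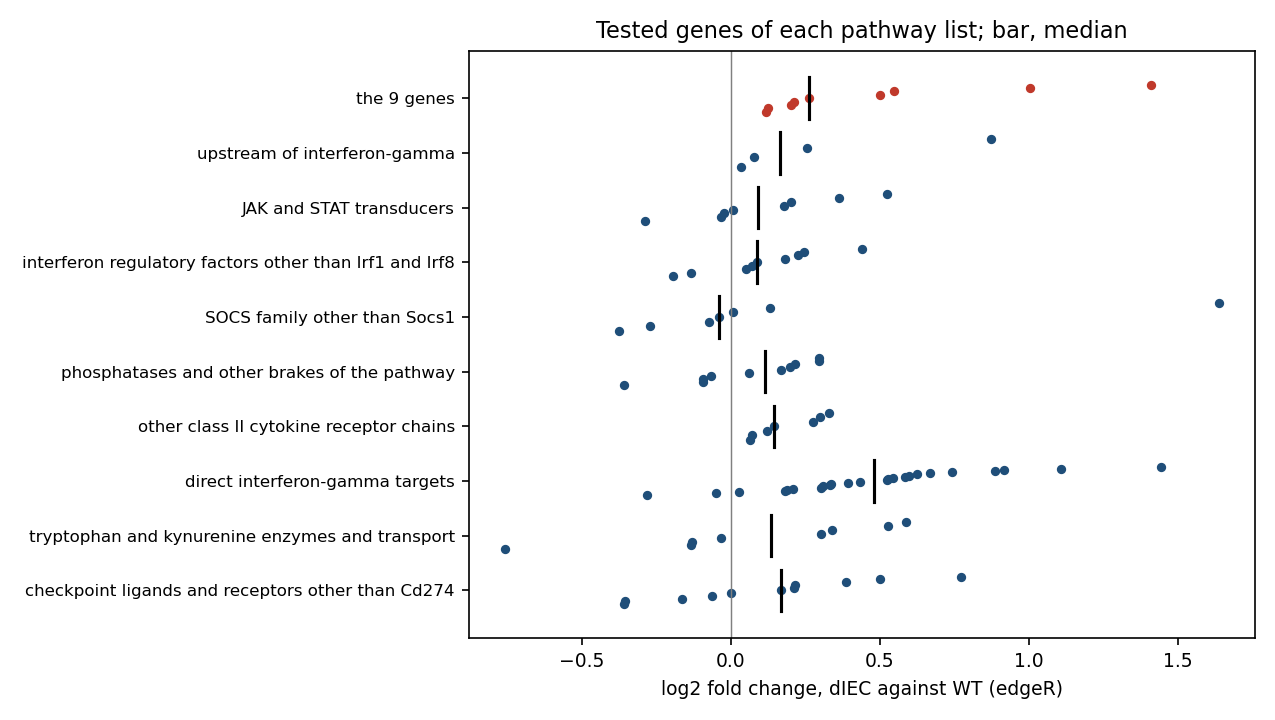
Log2 fold change, dIEC against WT, of every tested gene of the 9 genes (red) and of each pathway list (blue), with a bar at each median. The targets have a median of 0.48 and the 9 genes 0.26, while the other lists have medians between -0.04 and 0.17.

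T cell markers lay higher in dIEC, as the members did. Of 12 markers of T cells and intraepithelial lymphocytes 8 were tested, and all 8 lay above 0 (median log2 fold change 0.83). Of these, 7 had an unadjusted edgeR p under 0.05, against 4.86% of all genes higher in dIEC, and 0 passed the adjusted threshold. Their summed level was 16.1 to 39.6 CPM in WT and 61.2, 42.7, 34.4, 37.8 and 70.2 CPM in dIEC replicates 1, 3, 5, 6 and 11, with no marker at 0 in all libraries. The part of these cells in the levels of Socs1, Irf8, Ido1 and Cd274 was not tested. By T cell sum the dIEC replicates ran 11, 1, 3, 6 and 5 from high to low. They ran 11, 1, 3, 5 and 6 by Irf8 and 1, 11, 3, 5 and 6 by Cd274. By Socs1 the order was 3, 5, 11, 1 and 6, and by Ido1 3, 11, 5, 6 and 1. The WT replicates ran 12, 7, 8, 4, 9 and 2 by T cell sum, but 9, 4, 7, 8, 12 and 2 by Irf8. Cd274 gave 7, 12, 9, 4, 2 and 8 in WT. Socs1 gave 12, 9, 7, 4, 8 and 2 there, and Ido1 7, 9, 8, 2, 12 and 4.

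**Figure D5:**
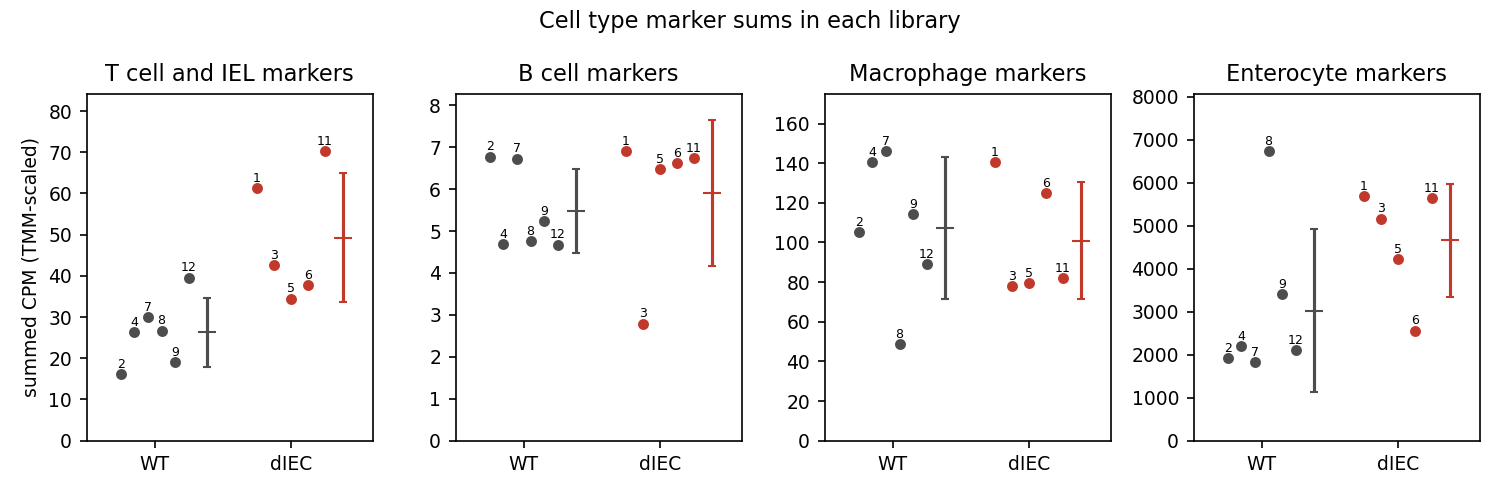
Summed CPM of the markers of T cells and intraepithelial lymphocytes (IEL), B cells, macrophages and enterocytes in each library, on linear axes from 0, with replicate numbers and the mean with its SD (n = 6 WT and 5 dIEC). T cell sums run from 16.1 to 39.6 CPM in WT and from 34.4 to 70.2 CPM in dIEC, and B cell and macrophage sums overlap widely. Enterocyte sums run from 2560 to 5690 CPM in dIEC. In WT they run from 1823 to 3403 CPM, apart from replicate 8 at 6731 CPM.

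The genes most like a member were sought as those with the smallest root mean square difference from it in log2 CPM, each gene centred on its own mean over the 11 libraries, among 13216 genes with at least 20 counts on average. For Irf8 these were Tap2, a chain of the class I peptide transporter (0.13), Lgals9 (0.16) and the class I heavy chain gene H2-K1 (0.17), where Irf8 itself departed from its mean by 0.35. Cd274 was followed by Gm11131 (0.19), Irf8 (0.20) and Gm29562 (0.20), against its own 0.40, so that a member was among the 3 genes nearest to it. Ido1 was followed by the interferon-induced genes Ifit1bl1 (0.35), Oas1g (0.43) and Ifi47 (0.46), against its own 0.83. Socs1 was followed by H2-DMb1 (0.45), B3gnt7 (0.47) and Sh2d7 (0.48), against 0.85, and its low counts set a floor to this likeness. Irf1 was followed by Sc5d, Ulk4 and Shpk (0.12 each), against 0.30. Irf1 and Irf8 differed from each other by 0.24, less alike than either was to its nearest genes. The nearest genes were picked from many, so these values are descriptions.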

How the data were processed

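RNA of 11 distal ileum libraries was compared, 6 WT against 5 dIEC, with groups and replicate numbers taken from the sample titles (the series' design text gives Cre-negative for both groups). Per the labels' protocols, libraries were made from total RNA with a directional NEBNext Ultra kit. Reads were aligned with TopHat2 to mm10, per the submitters' processing notes. For the counting tool, annotation and strand setting: not given in the sources used here. What the authors deposited is 1 table of whole-number counts per gene symbol without normalization. The 1 row lacking a gene name (0.00778 to 0.0147% of each total) was not used.

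In R 4.3.3, genes were filtered with filterByExpr of edgeR 4.0.16, libraries were scaled with TMM factors, and dIEC was tested against WT with the robust quasi-likelihood F test, adjusted over all 15911 genes (threshold 0.05). SE was taken as log2 fold change over root F. DESeq2 1.42.0 and limma 3.58.1 (voom) served as alternatives, with other scalings and filters and each library left out. Ratios used 0.5 added counts on the log2 scale. The edgeR step was tested on simulated counts drawn independently for each gene. These lack differences shared by many genes of a library, so that test does not measure power in these libraries. Coordinates and exon lengths come from GENCODE vM21 (GRCm38), which holds 99.2% of the symbols. Reads shared by paralogs or overlapping genes cannot be separated in these counts.

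The 9 genes and all lists were chosen with earlier results of these data known. Named from each list are the 3 tested genes with the highest mean CPM and any past the threshold, except items not reported here; Ifng, Zbp1 and the genes named as untested were added after their values were seen.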

Additional observations from a re-analysis of the deposited data

How the results depend on the processing

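The count of genes past the adjusted threshold was 1 with edgeR, 11 with DESeq2 (9 higher, 2 lower), 2 with library size alone and 1 to 319 with single libraries left out; the 319 came without WT replicate 8, and each of the other 10 libraries gave 1. The 9 members kept log2 fold changes above 0 under every alternative except library size alone, where Jak1 had -0.091 and Jak2 -0.066, in a fit whose median over all genes was -0.22. Of the members only Socs1 without WT replicate 8 (log2 fold change 1.34, adjusted p = 0.0457) crossed the threshold; its adjusted p over all settings ran from 0.0457 to 0.713 and its log2 fold change from 1.16 to 1.56. Socs1 and Ido1 had too few counts for the stricter filter. With single libraries left out the log2 fold change ran from 0.37 to 0.58 for Irf8, 0.45 to 0.64 for Cd274, 0.66 to 1.22 for Ido1, 0.10 to 0.15 for Jak1, 0.084 (without dIEC replicate 11) to 0.33 (without dIEC replicate 6) for Irf1, 0.029 (without dIEC replicate 3) to 0.24 (without WT replicate 8) for Jak2, 0.12 (without dIEC replicate 1) to 0.34 (without WT replicate 8) for Ifngr1, and 0.15 (without dIEC replicate 1) to 0.40 (without dIEC replicate 6) for Ifngr2. H2-Ab1 did not pass in the main edgeR fit (log2 fold change -1.68, adjusted p = 0.363). It passed with DESeq2 (-1.67), with library size alone (-1.90) and without WT replicate 8 (-1.57). The log2 difference in the Socs1 to Irf1 ratio ran from 1.07 to 1.39 with single libraries left out and passed without WT replicate 12 (1.39, adjusted p = 0.0476, against 0.0571 to 0.114 without each other library). Without a dIEC library too few arrangements remain for this ratio to pass by itself. The differences in Ifngr1 to Ifngr2 ran from -0.14 to 0.054, being above 0 without WT replicate 8 or dIEC replicate 1, 3 or 5, and those in Jak2 to Jak1 from -0.088 to 0.091, being above 0 without WT replicate 7, 8 or 9 or dIEC replicate 5, 6 or 11. The cause of these changes was not tested. No paired analysis was possible because the labels give no pairing of mice between the groups. Depth limits Socs1 (3 to 34 counts a library) and leaves Ifng, with 5 reads in all, unmeasured.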
